A study of Sus scrofa with 13 samples.

Results

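Long non-coding RNAs (lncRNAs) that were expressed in every tissue sequenced made up 36 of 10813 listed lncRNAs in the pig. A lncRNA was a member if it reached 0.5 RPKM (reads per kilobase of transcript, scaled to the total reads of the library) in each of 11 single-tissue libraries and if its highest over lowest RPKM among 3 stages of skeletal muscle stayed under 4. The members were thus chosen by their measured RPKM in these 11 libraries. The lncRNAs were assembled by the authors and carry TCONS identifiers only. The 11 libraries were total RNA from Guizhou mini-pigs, a miniature breed of China. They came from adipose tissue, ovary, testis, kidney, lung, spleen, liver and heart at 240 days after birth and from longissimus dorsi, the long muscle of the back, at day 0, day 30 and day 240. Another 2 libraries were mixtures of equal amounts of RNA from several breeds and ages, 1 of multiple tissues (tissue mixture) and 1 of longissimus dorsi, also labelled as multiple muscle tissues (muscle mixture), and the rule did not use them. Each tissue, stage or mixture had 1 library, and the number of animals behind it is not given in the labels, so no value has a replicate check and no test between tissues was possible. Poisson 95% intervals below cover counting error of the reads only.

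LncRNAs are long transcripts that do not encode a protein, and some act in the nucleus on chromatin or splicing and others in the cytoplasm. Most are known to be made at low levels and in few tissues, in contrast to many messenger RNAs of basic cell functions. The few broadly expressed lncRNAs known in mammals include RNAs of nuclear bodies and host transcripts of small nucleolar RNAs. The expression files pair the TCONS features with values only, and their annotation and sequences, which the study describes, were not at hand and not used here. None of the 36 was therefore matched to a known lncRNA, and what they do is not described. In bulk tissue, fewer cells of a type and less RNA per cell cannot be told apart.

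The libraries differed in depth and in how much of it fell on listed features. The number of reads used in RPKM ran from 21685316 in ovary to 38581416 in testis among single tissues, and it was 108337358 and 63015726 in the tissue and muscle mixtures. Of these, 11.6% (spleen) to 38.0% (ovary) were counted on listed features in single tissues, against 30.0% and 29.6% in the mixtures. Of 45 tissue markers, 28 could be paired with a listed gene, and 28 of 28 were highest in their own tissue. The lead was slight for APOA1, at 0.364 RPKM in liver and 0.358 RPKM in ovary. For ovary and for skeletal muscle, only 1 marker each was paired. In the tissue mixture, 23 of 23 markers of tissues other than testis reached 0.5 RPKM, whereas 4 of 5 testis markers were listed at 0, and their summed level was 0.168 RPKM against 4671 RPKM in testis. HBB, the beta chain of hemoglobin, had 3577 RPKM in the tissue mixture and at most 52.7 RPKM in a single tissue.

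Expression in every library was rare among lncRNAs. The members were 0.333% of the listed lncRNAs, whereas the same rule was met by 3878 of 21607 Ensembl genes (17.9%). No library reached the limit of 0.5 RPKM for 5312 lncRNAs, and 3555 reached it in 1 library. Before the muscle limit, 48 lncRNAs (0.444%) and 4586 Ensembl genes (21.2%) reached it in all 11 libraries. The muscle limit removed 12 of the 48, of which 11 were highest at day 0 among the muscle stages and 1 at day 30.

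**Figure D1:**
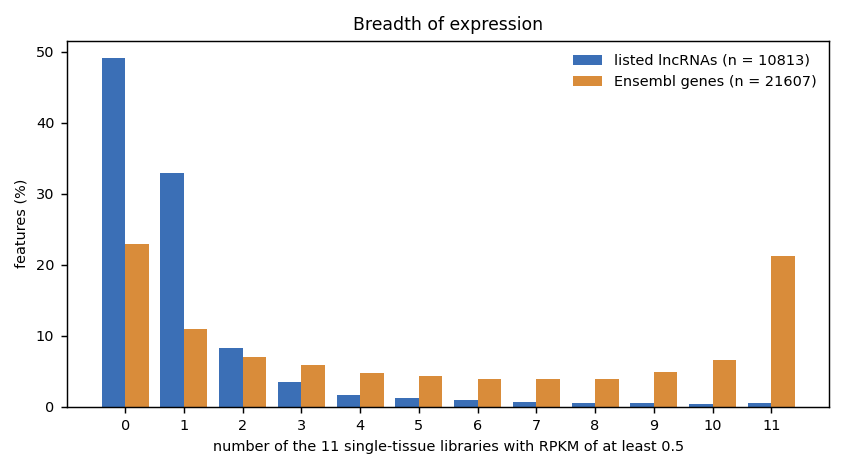
Share of listed lncRNAs (blue) and Ensembl genes (orange) in percent on the vertical axis, by the number of the 11 single-tissue libraries in which the feature reached 0.5 RPKM. The lncRNAs fall to 0.444% at 11 libraries, where the Ensembl genes stand at 21.2%.

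The limit of 0.5 RPKM did not fall in a gap of the values. Just inside the limit of 0.5 RPKM were TCONS_00578758 (lowest value 0.501 RPKM, in spleen), TCONS_00360609 (0.504 RPKM, in testis) and TCONS_00401540 (0.545 RPKM, in spleen). Just outside it were TCONS_00098658 (0.483 RPKM, in ovary), TCONS_00073605 (0.480 RPKM, in liver) and TCONS_00388059 (0.471 RPKM, in heart). The 7 reads of TCONS_00578758 in spleen gave an interval of 0.201 to 1.03 RPKM, so the limit could not separate such neighbours at this depth. For the ratio of muscle stages, TCONS_00133862 (3.42), TCONS_00826214 (3.23) and TCONS_00412677 (3.21) were just inside, and TCONS_00178272 (4.29), TCONS_00762703 (4.85) and TCONS_00682594 (4.99) just outside. Of the lncRNAs at 0.5 RPKM in all 11 libraries, none had a ratio between 3.42 and 4.29. The ratio of TCONS_00133862 rested on 45 reads at day 0 (interval 2.60 to 4.77 RPKM) and 9 at day 30 (0.477 to 1.98 RPKM). Counting error could thus carry it past the limit of 4.

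Apart from 1 transcript, the members were low. The median RPKM over the 11 libraries was from 0.906 (TCONS_00360609) to 3023 (TCONS_00512109) and its median over the 36 was 2.70, against 3.96 for the Ensembl genes that met the same rule. A median of at least 1 RPKM was found for 35 members, of at least 5 RPKM for 11 and of at least 10 RPKM for 4. These levels were used by the rule and are a description. The fewest reads of a member in any of the 11 libraries ranged from 4 to 5013, with fewer than 10 reads for 8 members.

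The 10 members with the highest median RPKM were TCONS_00512109, TCONS_00326882 (15.2), TCONS_00069513 (10.8), TCONS_00823478 (10.7), TCONS_00576222 (9.21), TCONS_00619270 (9.15), TCONS_00651860 (8.70), TCONS_00127776 (8.23), TCONS_00389233 (7.32) and TCONS_00778279 (6.83). Their highest values were not all in the same library, but ovary was highest for TCONS_00069513, TCONS_00127776, TCONS_00389233 and TCONS_00778279. TCONS_00823478 was at 34.9 RPKM in spleen, 27.1 in lung, 22.8 in ovary, 20.8 in kidney, 11.7 in adipose tissue, 10.7 in testis, 8.0 in heart and 3.39 in liver, and at 5.85, 2.36 and 4.51 in muscle at day 0, day 30 and day 240. TCONS_00576222 was at 36.2 RPKM in liver, 25.7 in lung, 18.9 in adipose tissue, 15.8 in kidney, 10.5 in spleen, 9.21 in heart, 7.25 in ovary and 4.48 in testis, and at 3.15, 2.87 and 1.89 in the muscle stages. Spleen thus led for the former and liver for the latter, and the muscle stages were low for both. TCONS_00619270 ranged from 1.61 RPKM (muscle day 30) to 19.4 RPKM (spleen), and TCONS_00651860 from 2.68 RPKM (muscle day 30) to 27.4 RPKM (kidney). TCONS_00127776 and TCONS_00389233 were lowest in liver (3.06 and 2.35 RPKM) and highest in ovary (15.8 and 17.2 RPKM).

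**Figure D2:**
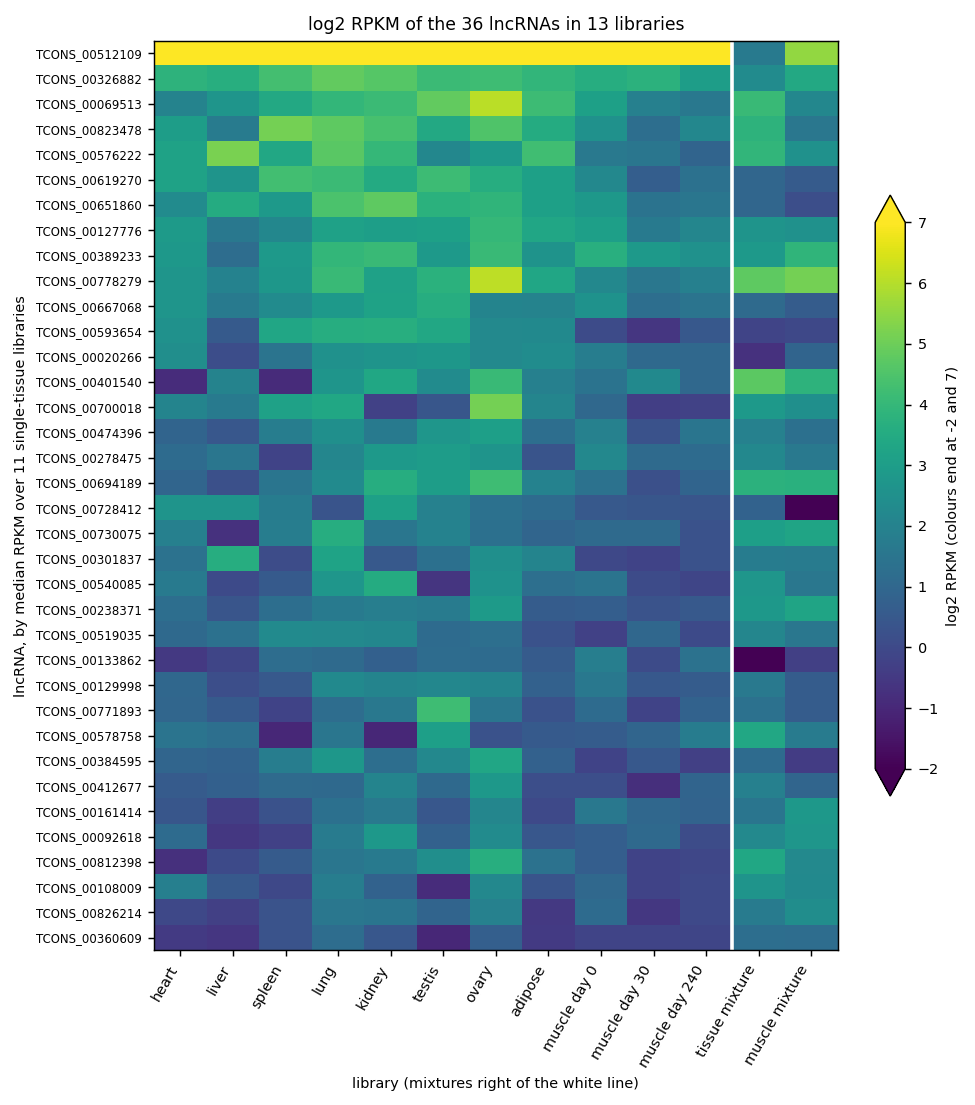
Log2 RPKM (colour) of the 36 lncRNAs (rows, by their median RPKM over the 11 single-tissue libraries) in the 13 libraries (columns), with the 2 mixtures right of the white line. The first row, TCONS_00512109, is past the end of the colour scale in every single-tissue library and falls to 3.29 RPKM in the tissue mixture.

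TCONS_00512109 held most of the signal of the members. It was at 6380.0 RPKM in heart, 278.5 in liver, 1173 in spleen, 1912 in lung, 5375 in kidney, 1852 in testis, 3057 in ovary and 2217 in adipose tissue, and at 6997 in muscle at day 0, 3023 at day 30 and 6038 at day 240. It was thus highest in newborn muscle, adult muscle, heart and kidney, and lowest in liver, where its 5013 reads gave an interval of 270.8 to 286.3 RPKM. Among all 32420 features it had the highest RPKM in lung, kidney, adipose tissue and muscle at day 0, and rank 2 to 4 in the other libraries except liver, where its rank was 21. It alone took 10.1% (liver) to 68.3% (muscle day 0) of the reads on lncRNAs in single tissues, with a median of 41.2%. All 36 members together took 15.04% (testis) to 71.0% (muscle day 0) of these reads, and 2.91% to 14.1% without TCONS_00512109. RPKM in these libraries corresponded to a length of 584 nt for this transcript.

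In both mixtures TCONS_00512109 was far below its single-tissue levels. It had 3.29 RPKM in the tissue mixture (208 reads, interval 2.86 to 3.77 RPKM) and 47.1 RPKM in the muscle mixture (1734 reads, interval 44.9 to 49.4 RPKM). The former was 956-fold lower than the mean of the 9 organs at 240 days and 84.7-fold lower than liver, its lowest single tissue. The latter was 114-fold lower than the mean of the 3 muscle stages and 5.91-fold lower than liver. Its rank among all features was 8486 in the former and 348 in the latter.

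The 5 features whose log2(RPKM + 0.1) was most like that of TCONS_00512109 over the 11 single-tissue libraries, by Pearson correlation (r) among 10971 features above 0 in each of them, were ENSSSCG00000028063 (0.953), DLAT (0.931), ANK2 (0.922), ENSSSCG00000000388 (0.914) and ATP8 (0.909). DLAT is a subunit of the pyruvate dehydrogenase complex, ANK2 an ankyrin that anchors membrane proteins in heart muscle, and ATP8 a subunit of ATP synthase encoded by the mitochondrial genome. After these values were seen, the 13 protein genes of the mitochondrial genome, which encode subunits of the respiratory chain and of ATP synthase, were set beside it. Their correlation with TCONS_00512109 was from 0.60 (ND6) to 0.909 (ATP8) with a median of 0.817, and 10 of 13 were in the top 1% of features, whereas the median of all features was 0.0901. With the same total RPKM in each library the median of the 13 was 0.738, and with the same median ratio over features 0.850. All features share the depth and composition of these 11 libraries, and the correlation is a description without a test.

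In the mixtures TCONS_00512109 fell further than any of the 13 mitochondrial genes, most of which fell too. All 13 also met the rule for members. Their summed level was 1585 RPKM in spleen to 23962 RPKM in heart, and TCONS_00512109 amounted to 15.2% (liver) to 86.5% (lung) of it in single tissues. In the tissue mixture their sum was 8966 RPKM and TCONS_00512109 amounted to 0.0367% of it, and in the muscle mixture 10060.3 RPKM and 0.468%. Against the mean of the 9 organs or of the 3 muscle stages, as log2 of the ratio of RPKM + 0.1, 9 of 13 were lower past 2-fold in the former mixture and 7 of 13 in the latter. Their log2 ratio ran from -5.80 to 1.21 (median -2.50) and from -3.77 to 0.58 (median -1.32), respectively. That of TCONS_00512109 was -9.86 and -6.82. COX1, a subunit of cytochrome c oxidase, was at 6650.4 and 5788 RPKM in the mixtures, which was most of both sums. ND6, a subunit of NADH dehydrogenase, was at 7.25 and 30.4 RPKM. Near-identical copies of a transcript elsewhere in the genome, between which counting could split reads, were not tested.

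**Figure D3:**
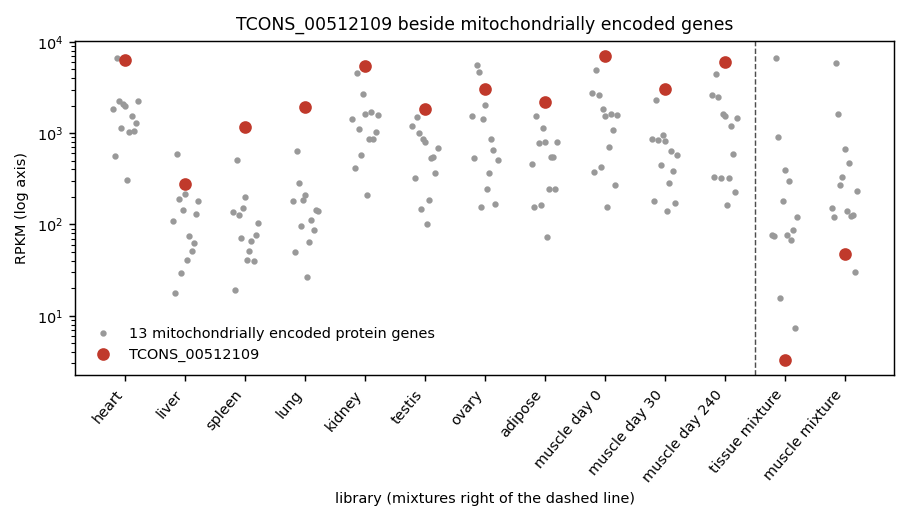
RPKM on a log axis of TCONS_00512109 (red) and of 13 mitochondrially encoded protein genes (grey) in the 13 libraries, mixtures right of the dashed line. TCONS_00512109 stands above all 13 genes in single tissues except heart, liver and ovary, at 3.29 RPKM below all of them in the tissue mixture, and at 47.1 RPKM in the muscle mixture, above ND6 only.

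The members were present everywhere but not at an even level. The highest over lowest RPKM over the 11 libraries was from 3.53 to 43.3, with a median of 11.1, close to 11.06 for the Ensembl genes that met the same rule. It was 25.3 for the 518 lncRNAs above 0 RPKM in all 11 libraries, which were not held to a lower limit of 0.5 RPKM. It was under 5 for 3 members, under 10 for 16 and under 20 for 29. In all 36 members the Poisson intervals of the highest and the lowest library did not overlap, and this was so for 100% of the Ensembl genes that met the rule and of the 518 lncRNAs, so it does not set the members apart. The intervals do not cover differences between animals or libraries. Tau, an index of 0 for equal log2(RPKM + 0.1) in all libraries and of 1 for expression in a single one, had a median of 0.273 in the members and 0.269 in these Ensembl genes.

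The most even member was TCONS_00326882, also the second in level. It was at 28.7 RPKM in lung, 24.8 in kidney, 19.8 in spleen, 18.2 in ovary, 17.5 in testis, 15.2 in adipose tissue, 14.0 in heart and 12.3 in liver, and at 12.3, 13.7 and 8.12 in muscle at day 0, day 30 and day 240. Lung and kidney led, and adult muscle was lowest. After it came TCONS_00129998 (highest over lowest 4.32), TCONS_00360609 (4.66), TCONS_00133862 (5.03), TCONS_00127776 (5.16), TCONS_00667068 (5.19), TCONS_00161414 (5.49), TCONS_00826214 (5.6), TCONS_00519035 (5.90) and TCONS_00238371 (5.99). TCONS_00129998 was at 2.01 RPKM in heart, 1.11 in liver, 1.43 in spleen, 4.78 in lung, 4.14 in kidney, 4.53 in testis, 4.17 in ovary and 1.76 in adipose tissue, and at 3.03, 1.40 and 1.54 in the muscle stages. TCONS_00360609, the lowest member by median, was nearly flat over the muscle stages at 0.906, 0.901 and 0.913 RPKM and ranged from 0.504 RPKM in testis to 2.35 RPKM in lung.

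The least even members were TCONS_00700018 (43.3), TCONS_00401540 (31.2), TCONS_00512109 (25.1), TCONS_00778279 (23.1) and TCONS_00069513 (22). Apart from TCONS_00512109, their highest value was in ovary. TCONS_00700018 was at 34.6 RPKM in ovary, 10.2 in lung, 8.95 in spleen, 4.23 in adipose tissue, 4.19 in heart, 3.22 in liver, 1.33 in testis and 0.839 in kidney, and at 2.03, 0.798 and 0.859 in the muscle stages. TCONS_00778279 was at 68.1 RPKM in ovary, and the next library, lung, was at 17.0 RPKM. TCONS_00069513 had 67.4 RPKM in ovary, 28.7 RPKM in testis and 3.06 RPKM in adult muscle. In all 3, ovary was more than 2-fold above the next library in RPKM as deposited. This lead depends on the scale, since the summed RPKM was highest in ovary (214285) among the 13 libraries. TCONS_00401540 was at 17.0 RPKM in ovary and 10.4 in kidney but at 0.551 in heart and 0.545 in spleen, with 5 reads in each of the latter. TCONS_00771893, outside the 5, had 18.4 RPKM in testis and at most 3.06 RPKM elsewhere.

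Ovary was the highest library for 15 of 36 members, which fell to 4 when the libraries were scaled either to the same total RPKM or to the same median ratio over features. The others were highest in testis (5), kidney (5), lung (4), spleen (3), liver (2) and muscle at day 0 (2). Among the Ensembl genes that met the rule, 47.0% were highest in ovary and 29.0% in testis. Ovary also had the largest share of reads counted and a summed RPKM of 214285, the highest of the 13 libraries. With the same total, lung (9) and kidney (9) led, and with the same median ratio, liver (7). The lowest library was muscle at day 30 for 12 members, liver for 9, and spleen and muscle at day 240 for 4 each. Of the Ensembl genes that met the rule, 20.1% were lowest in muscle at day 30, 40.3% in liver, 7.48% in spleen and 14.4% in muscle at day 240. A muscle stage was lowest for 17 members (47.2%) as deposited, 24 (66.7%) with the same total and 7 (19.4%) with the same median ratio, against 38.2%, 49.1% and 17.1% of these Ensembl genes.

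**Figure D4:**
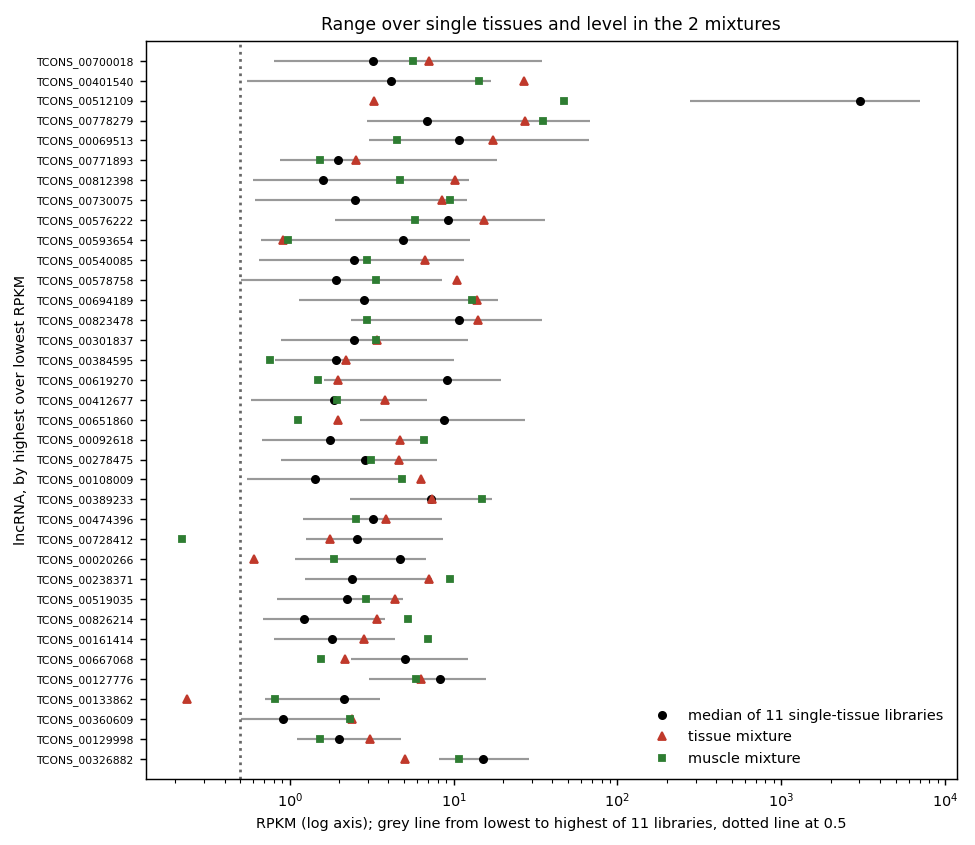
RPKM on a log axis of each member, sorted by highest over lowest RPKM. The grey line runs from the lowest to the highest of 11 single-tissue libraries, the black point is their median, and the triangle and square are the tissue and muscle mixtures. For 6 members each mixture lies left of the line and for 4 right of it.

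Genes widely used as even references had a wide range in these libraries too. Of 20 such genes, 13 could be paired with a listed gene and 9 met the rule, and the median highest over lowest RPKM of the 13 was 24.7, with no rule on their level. SDHA (succinate dehydrogenase) had 9.81, whereas GAPDH (a glycolytic enzyme, highest in adult muscle) had 77.1 and ACTB (cytoplasmic actin) 34.8. For others of the list, the highest over lowest RPKM was 24.0 for RPL4, 25.1 for RPS18, 37.2 for YWHAZ, 441.5 for GUSB, 24.8 for PGK1, 21.5 for TOP2B, 13.5 for POLR2A and 24.7 for HSP90AB1. RPS18, GUSB and HSP90AB1 were among those that did not meet the rule.

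The members shared few features that the rule did not use. The length over which RPKM was computed was from 215 nt (TCONS_00728412) to 5556 nt (TCONS_00389233), with a median of 698.5 nt, against 826.5 nt for the lncRNAs above 0 RPKM in at least 4 libraries and 2123 nt for the Ensembl genes that met the rule. Among the 518 lncRNAs above 0 RPKM in all 11 libraries it was 1799.5 nt. A fixed RPKM limit asks for more reads from a longer transcript, whereas a value above 0 needs 1 read, so the members and the 518 were held to different read numbers at a given length. Under 500 nt were 16 members.

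None of the 36 had a listed lncRNA with the adjacent TCONS number, whereas 30.7% of all listed lncRNAs had one. Within a distance of 10 numbers were 7 members and 51.2% of all lncRNAs. No member was within 50 of another member, for which no background was computed. Assembled transcripts of 1 place often have near numbers, but the numbers give no position. Of the 3322 lncRNAs with an adjacent number, 50.6% were at 0 in all 11 libraries and 1 reached 0.5 RPKM in all of them. Of the 7491 without one, 6.07% were at 0 throughout and 47 reached the limit. Reads that overlap several transcripts can be left out by gene-wise counting, and its part in this difference was not tested.

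Across the 11 libraries, the 630 pairs of members had a median Spearman correlation of 0.436 as deposited, 0.464 with the same total and 0.0909 with the same median ratio. It was above 0 in 550, 560 and 380 pairs, respectively. Pairs of the Ensembl genes that met the rule had medians of 0.445, 0.318 and 0.0364, and all pairs share the depth and composition of the libraries.

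In the tissue mixture, which the rule did not use, 35 of 36 members reached 0.5 RPKM. The share was 12.1% for all listed lncRNAs, 73% for the 518 lncRNAs above 0 RPKM in all 11 libraries and 99.9% for the Ensembl genes that met the rule. The exception was TCONS_00133862 with 0.235 RPKM (9 reads, interval 0.108 to 0.447 RPKM), which was at 0.709 RPKM in heart, 0.919 in liver, 2.34 in spleen, 2.15 in lung, 1.71 in kidney, 2.28 in testis, 2.22 in ovary and 1.5 in adipose tissue, and at 3.57, 1.04 and 2.60 in the muscle stages. In the muscle mixture, 35 of 36 reached the limit as well, against 8.94%, 69.1% and 99.8% of the same 3 sets. There the exception was TCONS_00728412, the shortest member, with 0.221 RPKM (3 reads, interval 0.0457 to 0.647 RPKM) against 1.43, 1.33 and 1.28 RPKM in the muscle stages.

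Each mixture was set against the mean of its single tissues as log2 of the ratio of RPKM + 0.1, and called past 2-fold. In the tissue mixture against the 9 organs at 240 days, 8 members were higher (22.2%) and 9 lower (25%). Among lncRNAs of at least 0.1 RPKM these shares were 23.3% and 35.5%, among the 518 lncRNAs above 0 RPKM in all 11 libraries 30.5% and 13.1%, and among the Ensembl genes that met the rule 26.9% and 9.8%. With testis, whose markers were nearly absent from this mixture, left out of the mean, 7 members were higher and 9 lower. The median log2 ratio was 0.02 for the members and 0.44 for these Ensembl genes. The members' median was -0.61 with the same total and -1.01 with the same median ratio, and that of the Ensembl genes -0.13 and -0.71, since a scaling shifts all features of a library alike.

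TCONS_00401540 (log2 ratio 2.25), TCONS_00578758 (1.96) and TCONS_00108009 (1.57) stood highest in the tissue mixture. TCONS_00401540 was at 26.8 RPKM there, above its highest single tissue, and TCONS_00578758 at 10.5 RPKM against 8.44 RPKM in testis, 0.501 RPKM in spleen and kidney and 1.2 to 3.43 RPKM in the other libraries. TCONS_00108009 had 6.37 RPKM in the mixture and 0.550 (testis) to 4.61 RPKM (ovary) in single tissues. All 3 were thus above each of the 11 single-tissue libraries in RPKM. For TCONS_00578758, the interval in the mixture (9.57 to 11.6 RPKM) overlapped that in testis (7.02 to 10.1 RPKM).

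Lowest in the tissue mixture, after TCONS_00512109, were TCONS_00593654 (-2.83) and TCONS_00020266 (-2.69). TCONS_00593654 was at 5.81 RPKM in heart, 1.46 in liver, 10.1 in spleen, 12.1 in lung, 12.5 in kidney, 10.5 in testis, 4.72 in ovary and 4.88 in adipose tissue, at 1.03, 0.671 and 1.38 in the muscle stages and at 0.908 in the mixture. TCONS_00020266 had 0.608 RPKM in the mixture and 1.08 (liver) to 6.83 RPKM (testis) in single tissues. TCONS_00326882, the most even member, was also lower, with 5.06 RPKM against a mean of 17.6 RPKM over the organs. In all, 6 members (16.7%) were below all 11 single-tissue libraries in this mixture and 4 (11.1%) above, against 2.14% and 17.4% of the Ensembl genes that met the rule, whose lower bound was set by the same limit. Among the 518 lncRNAs it was 2.51% and 24.7%, but they were not held to that limit. Their lowest value could thus be lower, which left less room below it. Of the 6, only TCONS_00512109, TCONS_00326882 and TCONS_00020266 had a Poisson interval apart from that of their lowest library. Of the 4, only TCONS_00401540 and TCONS_00108009 had one apart from that of their highest library. The other sets were not checked for this.

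In the muscle mixture against the 3 muscle stages, 15 members were higher past 2-fold (41.7%) and 5 lower (13.9%). Among lncRNAs of at least 0.1 RPKM these shares were 66.3% and 6.33%, among the 518 lncRNAs 56% and 4.25%, and among the Ensembl genes that met the rule 52.5% and 2.29%. The median log2 ratio was 0.59 for the members and 1.04 for these Ensembl genes, and it was 0.19 and 0.59 with the same total and -0.99 and -0.48 with the same median ratio. The direction of the members' median in the muscle mixture thus depends on the scale.

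Highest in the muscle mixture were TCONS_00778279 (log2 ratio 3.18), TCONS_00694189 (2.72) and TCONS_00238371 (2.65). TCONS_00778279 was at 34.9 RPKM in the mixture and at 4.54, 2.94 and 3.82 RPKM in muscle at day 0, day 30 and day 240. TCONS_00694189 had 13 RPKM against 2.64, 1.15 and 1.87 RPKM, and TCONS_00238371 had 9.47 RPKM against 1.60, 1.24 and 1.44 RPKM. All 3 were also above 1 RPKM in every single tissue, with their highest value in ovary. Lowest after TCONS_00512109 were TCONS_00728412 (-2.17) and TCONS_00651860 (-1.80), the latter with 1.13 RPKM against 6.99, 2.68 and 2.89 RPKM. Again 6 members (16.7%) were below the range of all 11 single-tissue libraries and 4 (11.1%) above. The shares were 2.01% and 12.3% of the Ensembl genes that met the rule. They were 2.12% and 21% of the 518 lncRNAs, which were not held to the limit of 0.5 RPKM. Of the 6, only TCONS_00512109 and TCONS_00651860 had a Poisson interval apart from that of their lowest library. Of the 4, the interval of TCONS_00108009 overlapped that of ovary, its highest library. The other sets were not checked for this.

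Of the 36 members, 12 were past 2-fold in both mixtures. Among them, 7 were higher in both, 5 were lower in both and 0 went in opposite directions. These 3 shares were 21.3%, 1.73% and 1.11% of the Ensembl genes that met the rule and 25.9%, 3.86% and 2.12% of the 518 lncRNAs. All 9 that were lower in the tissue mixture were also below their muscle mean in the muscle mixture, for which no background was computed. For TCONS_00593654 (log2 ratio -0.068) and TCONS_00326882 (-0.071) the Poisson interval of the muscle mixture covered that mean. These 9 had a median length of 331 nt, and the other members 960 nt. Of the 16 members under 500 nt, 6 were lower and 3 higher in the tissue mixture, and of the 20 others 3 were lower and 5 higher. In the muscle mixture, 3 of the 16 were lower and 3 higher, and 2 of the 20 lower and 12 higher. A larger share lower under 500 nt was not particular to the members. Of the 518 lncRNAs, 37.5% of the 72 under 500 nt and 9.19% of the 446 others were lower in the tissue mixture, and 16.7% and 2.24% in the muscle mixture. Of the Ensembl genes that met the rule, it was 19.4% and 9.37% in the tissue mixture. Both mixtures combined breeds and ages and were sequenced deeper than the single tissues, and 2 protocols of library preparation are named in the labels without saying which was used for which library, so breed, age and protocol cannot be told apart here.

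**Figure D5:**
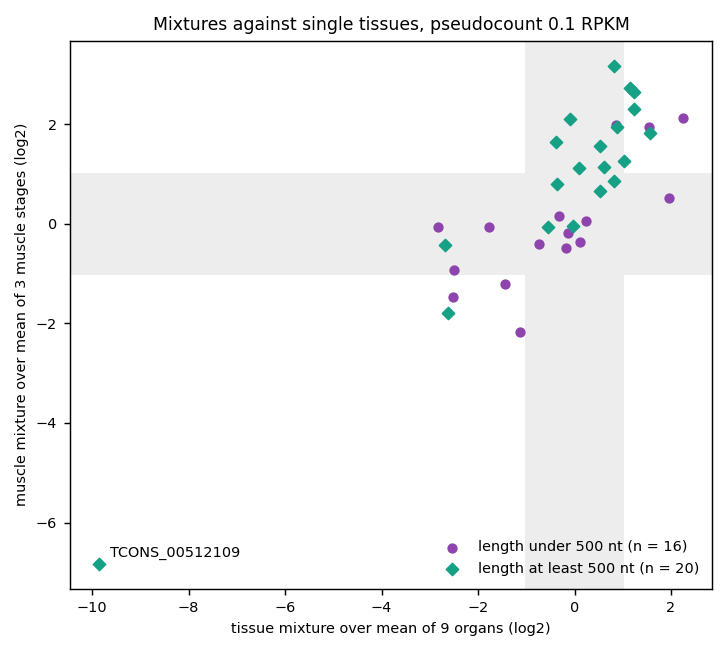
Log2 of RPKM + 0.1 in the tissue mixture over the mean of 9 organs (horizontal) and in the muscle mixture over the mean of 3 muscle stages (vertical) for the 36 members, by length (circles under 500 nt, diamonds 500 nt and over), with 2-fold bands in grey. TCONS_00512109 lies alone at -9.86 and -6.82, and the other 35 run from lower left to upper right.

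Between the muscle stages, where the rule limits the change to under 4-fold, most members were highest at birth in RPKM as deposited. The highest stage was day 0 for 26 members, day 30 for 5 and day 240 for 5, and the lowest was day 30 for 22. Of the Ensembl genes that met the rule, 66.5% were highest at day 0 and 60.5% lowest at day 30. The Poisson intervals of the highest and the lowest stage did not overlap in 26 of 36 members, against 88.6% of these Ensembl genes. From day 0 to day 30, 1 member (2.78%) was higher past 2-fold and 17 (47.2%) lower, against 32.1% and 41% of the lncRNAs of at least 0.1 RPKM. From day 30 to day 240, 3 (8.33%) were higher and 1 (2.78%) lower, against 29.2% and 38.2%. From day 0 to day 240, 1 (2.78%) was higher and 9 (25%) lower, against 25.4% and 45.2%. Since the rule used these values, the counts are a description.

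The median log2 change of the members was -0.83, 0.12 and -0.58 in these 3 contrasts, and that of the Ensembl genes that met the rule -0.77, 0.29 and -0.50. With the same median ratio the members' medians were -0.01, -0.01 and 0.15, so the lead of day 0 depends on the scale. The 1 member higher past 2-fold at day 30 than at day 0 was TCONS_00519035 (0.835, 1.99 and 1.01 RPKM at day 0, day 30 and day 240). TCONS_00133862 fell to 1.04 RPKM at day 30 from 3.57 RPKM and stood at 2.60 RPKM at day 240, and TCONS_00412677 was at 1.11, 0.580 and 1.86 RPKM. TCONS_00578758 was the 1 member higher past 2-fold at day 240 than at day 0, at 1.53, 1.92 and 3.43 RPKM.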

How the data were processed

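Total RNA of 13 pig libraries was analysed. Per the labels, ribosomal RNA was depleted with Ribo-Zero, and the protocol of the strand-specific libraries was SMART or dUTP. The submitters' processing notes name TopHat 1.3.2 and Cufflinks. The authors assembled transcripts, removed annotated, short, single-exon and coding ones, counted reads with htseq-count and deposited RPKM values, 1 per feature and library. The genome build of these files is not given in the sources used here.

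From the deposited RPKM, whole reads, library totals and lengths were recovered, since RPKM is a whole read number over length and total. All 29462 features above 0 gave whole reads (0 of 1135 with totals altered by up to 1%), and a length may be a divisor of the actual one. On simulated data, all 13 of 13 totals came back. So did the reads and lengths of 21869 of 21932 features above 0 in 4 libraries or more. Of features above 0 in 1 to 3 libraries, 5799 of 7110 came back. Where a recovered length is a divisor, the reads are too low, so shares of reads on lncRNAs can be too high. The rule also found 200 of 200 planted members. They were set clear of the limits, so only the coding of the rule was checked. A total of 11654 Ensembl genes were paired with a symbol.

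Members and lists were chosen with earlier results of these data known. Features named were the 10 highest members by median RPKM, the 10 most and 5 least even, 3 on each side of both limits, the 3 highest and lowest in each mixture, the longest and shortest, and the paired reference genes, of which some are not reported here. Others, the mitochondrial genes and the features most like TCONS_00512109 were named after their values were seen. No group had a second library, so no test was made. Alternatives were other limits, pseudocounts, folds, scalings and omitted libraries. Python 3.11.15, pandas 2.3.3 and scipy 1.17.1 were used.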

Additional observations from a re-analysis of the deposited data

How the results depend on the processing

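Of 161 values of 20 results under alternatives, 126 stayed close, 34 moved and 1 reversed. Close was a wide label. Counts were called close up to 1.5-fold. A median over the members was called close within an interval taken over the 36 members, which are not replicates. Thus 50 members with the same median ratio were called close to 36. So was a tissue mixture log2 ratio of 0.49 with a geometric mean, against 0.02. The tally is therefore no measure of how robust the results are. The members numbered 63 at a limit of 0.25 RPKM, 17 at 1 RPKM and 13 with a muscle ratio under 2. At a limit of 1 RPKM their level was 7.32 RPKM. Of the 43 lncRNAs that met the rule with the same total, 32 were members, and of the 50 with the same median ratio, 31. With the same total, 4 members were highest in ovary, the tissue mixture log2 ratio was -0.61 with 3 higher, and the log2 change in muscle was -0.27 by day 30 and -0.50 from then to day 240. With the same median ratio, the highest over lowest RPKM was 6.27, 4 members were highest in ovary and 7 lowest in a muscle stage, the tissue mixture had a log2 ratio of -1.01 with 1 higher and 18 lower, and the muscle mixture -0.99 with 3 higher and 18 lower. There the log2 change in muscle was -0.0059 by day 30, and that from birth to day 240 reversed to 0.15 from -0.58, with only the scale altered. Tau was 0.181 with a pseudocount of 0.01 and 0.438 with 1, and with the latter 2 members were lower in the muscle mixture. At 0.1 RPKM, 100% of the members were present in each mixture. At 1.5-fold, 13 were higher in the tissue mixture, and at 4-fold 1, with 6 higher and 2 lower in the muscle mixture. Against all 11 libraries the muscle mixture had a log2 ratio of -0.26 with 13 lower. The members' share of summed lncRNA RPKM was 55.1% as a median over single tissues and 7.92% without TCONS_00512109, an alternative chosen after seeing the data. All lncRNAs above 0 in any library had a median length of 568 nt. Within 1 number of a listed lncRNA were 0 members and within 50 numbers 24, against 30.7% and 80.0% of all listed lncRNAs.

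Leaving out each single-tissue library in turn gave 36 to 50 members, a level of 2.51 to 3.18 RPKM, a highest over lowest RPKM of 8.72 to 11.1, a tissue mixture log2 ratio of -0.08 to 0.28 with 7 to 11 higher and 8 to 9 lower, and a muscle mixture log2 ratio of 0.39 to 0.62 with 15 to 16 higher and 4 to 6 lower. No paired analysis was possible because each group had 1 library. Depth limits the lowest values, since 8 members rested on fewer than 10 reads in a library.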
